A study of Mus musculus with 4 samples.

Results

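The constitutive proteasome genes described here are the genes whose symbols begin with Psma, Psmb, Psmc or Psmd, without the interferon-inducible subunits Psmb8, Psmb9 and Psmb10 and without processed copies. The rule gave 37 genes of the 30406 that all 4 libraries share, matched by Ensembl identifier. They comprise 7 alpha-ring, 7 beta-ring, 6 ATPase and 3 other base subunits, 8 lid subunits, 3 assembly chaperones, the tissue-restricted Psma8 and Psmb11, and Psmc3ip, a meiotic recombination cofactor that carries the prefix but is no subunit. The data were single-cell counts of unique molecular identifiers (UMIs, 1 per captured transcript molecule) from immune cells of mouse brains that carried the glioma line GL261. The tissue label is brain, while the protocol text once calls the sorted immune cells lung cells. Mice lacked the type I interferon receptor (IFNaR-/-) or were wild type (WT), and each group was 1 library from pooled cell suspensions. The anti-PD1 groups, IFNaR-/- and WT, received an antibody against the checkpoint receptor PD-1 intraperitoneally, 200 ug per mouse on days 7, 11, 15 and 19 after tumour injection, and were sorted on day 25. The untreated groups, IFNaR-/- and WT, were sorted on day 20. Cells were live by 7-AAD and positive for CD45.2, and in the anti-PD1 groups CD3-positive and CD3-negative cells were mixed 1:1. Neither the deleted interferon receptor gene nor the number, age or sex of the mice is given in the labels.

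The proteasome is the protease that degrades proteins tagged with ubiquitin. Its core particle stacks alpha rings, which gate entry, on beta rings, which hold the catalytic sites, and a regulatory particle with an ATPase base and a lid recognises, unfolds and deubiquitinates substrates. In immune cells the inducible subunits can take the place of their constitutive catalytic counterparts, which changes the peptides made for presentation on MHC class I.

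After filtering, 7871, 8737, 2711 and 4965 cells remained in the IFNaR-/- anti-PD1, WT anti-PD1, IFNaR-/- untreated and WT untreated libraries, and values for the 4 libraries are given in that order below. Median depth was 4939, 8483, 9489 and 7122 UMIs per cell. The WT anti-PD1 library stood apart in kind. In its T cells, T-cell receptor variable segments had 2.08 UMIs per constant-segment UMI, against 0.0845, 0.0162 and 0.0182 in the other 3, and ribosomal protein genes took 11.4% of UMIs, against 16.2 to 19.2%. In that pair of libraries genotype and library kind cannot be told apart. Ifnar1 transcripts were counted in the IFNaR-/- libraries (146 and 129.5 CPM, UMIs per 1000000 UMIs of the library, against 77.4 and 97.5 in WT), and no label names the deleted exon, so its count checks nothing. The interferon-stimulated gene Irf7 was at 4.12 and 19.6 CPM in the IFNaR-/- libraries, against 406 and 361 in the WT libraries.

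Cells were assigned to lineages by raw marker counts: CD8 T and CD4 T cells by Cd3 genes with Cd8 genes or Cd4, microglia by Tmem119, P2ry12, Sall1, Sparc and Gpr34, and monocytes/macrophages by myeloid genes with Lyz2, Ccr2 and Ms4a7. The genes that set a gate are no finding, and no proteasome gene was among them. Summed microglial markers were at 1597 to 3106 CPM in microglia, against 18.7 to 32.8 in monocytes/macrophages, with none of the 5 at 0. The monocyte/macrophage markers together were at 52.9 to 458 CPM in CD8 T cells, against 4557 to 12420 in monocytes/macrophages, and none of the 3 was at 0 in a CD8 T gate. The microglia gate set no upper limit on the same 3 genes. In microglia of the 4 libraries these were at 4190, 6769, 2098 and 1916 CPM, with the microglial markers at 2039, 1597, 2491 and 3106 CPM. The part of RNA from other cells in the values below was not tested.

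The genes lie on 16 chromosomes, 7 of them on chromosome 11. RefSeq promoters (GRCm38.p6) were matched for 30 of the 37 genes. In the 250 bases before the start site, on either strand, the letters CCGGAAG were in 9 of these 30 (30%), against 7.05% of all 27025 promoters in the table. The letters CCAAT were in 13 (43.3%, against 34.5%), and TGACNNNGC, the core of the antioxidant response element, was in 5 (16.7%, against 10.15%). Each motif was counted without regard to the others. 3 promoters are printed, as the longest stretch of those bases free of annotated exons: Psmb5 and Psmb6, which encode catalytic subunits and hold TGACNNNGC, and Psmc3ip, which differed most between cycling and other T cells and holds CCGGAAG in both orientations. They lie at chr14:54618023-54618245 (minus strand), chr11:70525107-70525356 (plus) and chr11:101095437-101095685 (minus), are written 5′ to 3′ in gene orientation, and have in capitals the matches to TGACNNNGC and CCGGAAG. A match is a description of the letters only.
Psmb5: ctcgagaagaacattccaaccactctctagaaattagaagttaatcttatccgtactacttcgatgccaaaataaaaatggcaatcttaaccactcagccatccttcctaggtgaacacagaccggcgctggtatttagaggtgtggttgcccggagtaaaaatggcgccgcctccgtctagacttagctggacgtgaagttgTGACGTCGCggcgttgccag
Psmb6: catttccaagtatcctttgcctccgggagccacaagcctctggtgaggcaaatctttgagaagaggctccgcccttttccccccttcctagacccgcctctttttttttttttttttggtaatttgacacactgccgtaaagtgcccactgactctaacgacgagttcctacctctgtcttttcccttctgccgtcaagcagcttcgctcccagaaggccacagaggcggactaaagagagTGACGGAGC
Psmc3ip: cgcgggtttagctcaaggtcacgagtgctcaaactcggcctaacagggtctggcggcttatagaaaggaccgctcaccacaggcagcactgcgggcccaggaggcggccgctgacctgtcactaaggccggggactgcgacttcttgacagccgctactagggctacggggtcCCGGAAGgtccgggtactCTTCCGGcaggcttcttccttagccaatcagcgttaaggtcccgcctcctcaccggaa

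Summed over the 37 genes, proteasome message was the lowest in microglia, of the 4 lineage gates compared, in each library. Microglia had 2150, 3473, 2998 and 3215 CPM (UMIs per 1000000 UMIs of the gate), against 3471, 4469, 3992 and 4029 CPM in monocytes/macrophages. CD8 T cells had 2881, 4235, 3918 and 4126 CPM and CD4 T cells 3306, 4881, 4079 and 4105 CPM. Over the 4 libraries the means were 3790 ± 620.1 CPM in CD8 T cells, 4093 ± 643 in CD4 T cells, 2959 ± 573 in microglia and 3990 ± 408 in monocytes/macrophages (SD, n = 4 libraries of different conditions). The means of CD8 T cells, CD4 T cells and monocytes/macrophages lay within 1 such SD of one another. That SD holds condition differences and ignores that the gates share libraries. Within libraries, CD4 T cells were above CD8 T cells in all but the WT untreated one. In all 4 gates the IFNaR-/- anti-PD1 library was lowest and the WT anti-PD1 library highest. UMIs are not scaled to gene length, so levels are compared between gates and libraries, and genes are set beside each other only in the catalytic shares below. Per cell, the median share of UMIs from these genes was 0.187, 0.313, 0.256 and 0.264% in microglia, against 0.334, 0.431, 0.378 and 0.373% in monocytes/macrophages. The median microglial cell was thus lower in every library, as the sum was. In the untreated libraries, dendritic cells had 4141 (IFNaR-/-) and 4921 (WT) CPM, and neutrophils were lower still, at 1658 and 1793 CPM at 2386 and 3164 UMIs per cell.

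**Figure D1:**
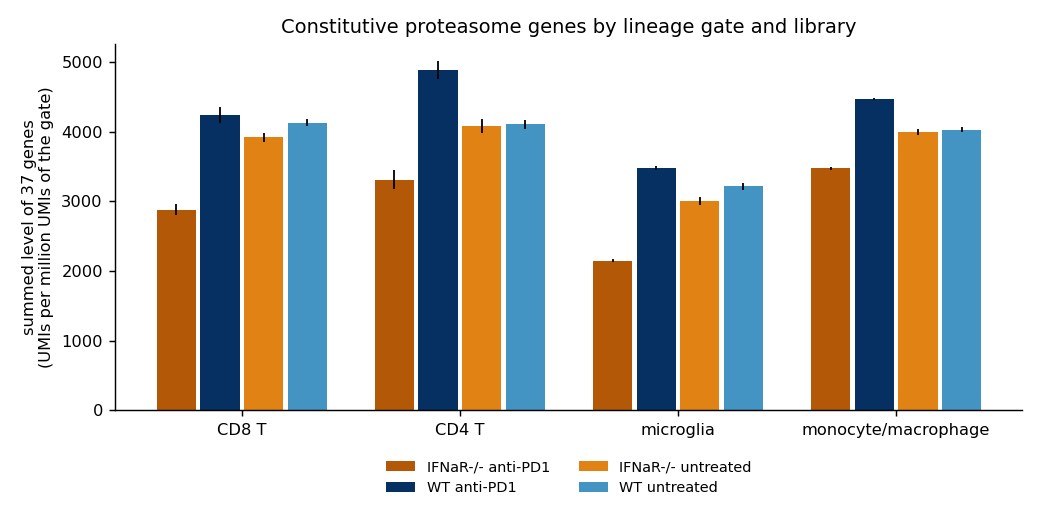
Summed level of the 37 genes (CPM, y axis) in 4 lineage gates (x axis) of each library, 1 bar per library, with 95% exact Poisson intervals that cover counting error only. The microglial bar is the lowest of the 4 gates in each library, and the IFNaR-/- anti-PD1 bar is the lowest of each gate.

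Whether proteasome genes differ between microglia, the resident brain macrophages, and monocytes/macrophages was compared within each library. 23 of the 35 genes tested fell in microglia and none rose (edgeR quasi-likelihood test, library as block, adjusted p under 0.05), while 19.2% of all 11729 genes tested were lower and 20.0% higher. The median log2 ratio of the 35 was -0.46, against 0.01 over all genes. All 7 alpha-ring genes fell, with a median of -0.64, as did 6 of 7 beta-ring genes (-0.59). Of the base, 2 of 6 ATPases and 2 of 3 other subunits fell. Of the lid 5 of 8 fell, and of the assembly chaperones 1 of 3. The count was 15 without the IFNaR-/- anti-PD1 library and 3 when libraries were not blocked.

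Psma7, an alpha-ring subunit at chr2:180036374-180042433 on the minus strand (GRCm38), had the lowest ratio. It was at 149.6, 229, 201 and 221 CPM in microglia, against 320.1, 353, 353 and 486 CPM in monocytes/macrophages. The groups did not overlap, and the log2 ratio was -1.03 ± 0.15 (SE), edgeR adjusted p = 0.00011. The alpha-ring subunit Psma2 was at 75.8, 169.8, 105 and 127 CPM in microglia, against 159, 245, 184 and 214 CPM in monocytes/macrophages. Its log2 ratio was -0.91 ± 0.14 (SE), edgeR adjusted p = 0.00022, and microglia were lower within every library although the 2 ranges overlapped across libraries. Psma4, also of the alpha ring, was at 58.2, 109, 100 and 124 CPM in microglia, against 119, 175, 143 and 179.9 CPM in monocytes/macrophages. The log2 ratio was -0.82 ± 0.13 (SE), edgeR adjusted p = 0.00027. Psmb3, a beta-ring subunit without a catalytic site, was at 88, 198, 97.6 and 131 CPM in microglia, against 173, 294, 162 and 179.5 CPM in monocytes/macrophages. Its log2 ratio was -0.81 ± 0.13 (SE), edgeR adjusted p = 0.00024. For Psma4 and Psmb3 too, microglia were the lower gate in every library.

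The catalytic subunits were lower as well, less uniformly. Psmb5, the chymotrypsin-like subunit (chr14:54614119-54618022, minus strand), was at 80, 142, 91.2 and 110.5 CPM in microglia, against 168, 196, 114 and 126 CPM in monocytes/macrophages. The log2 ratio was -0.65 ± 0.15 (SE), edgeR adjusted p = 0.0033, and the 2 values of the IFNaR-/- anti-PD1 library were furthest apart. Psmb7, the trypsin-like subunit (chr2:38588036-38644087, minus strand), was at 51.1, 74.2, 78.3 and 86.5 CPM in microglia, against 82.6, 101, 100 and 103 CPM in monocytes/macrophages. Its log2 ratio was -0.56 ± 0.15 (SE), edgeR adjusted p = 0.01. Psmb6, the caspase-like subunit (chr11:70525367-70527858, plus strand), was at 158, 269.8, 133 and 162 CPM in microglia, against 250.4, 304, 142 and 192 CPM in monocytes/macrophages. It had the same sign in all 4 libraries, but did not pass the test (-0.44 ± 0.20 (SE), edgeR adjusted p = 0.092). The ATPase Psmc2 had a ratio of -0.11 ± 0.14 (SE), edgeR adjusted p = 0.58, and the base chaperone Psmd5 one of 0.12 ± 0.15 (SE), edgeR adjusted p = 0.57. Neither passed. Median depth was 6724, 12240, 9361 and 8044 UMIs per microglial cell, against 6013, 8727, 10620 and 7745 per monocyte/macrophage, so microglia were the deeper gate in 3 of 4 libraries.

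**Figure D2:**
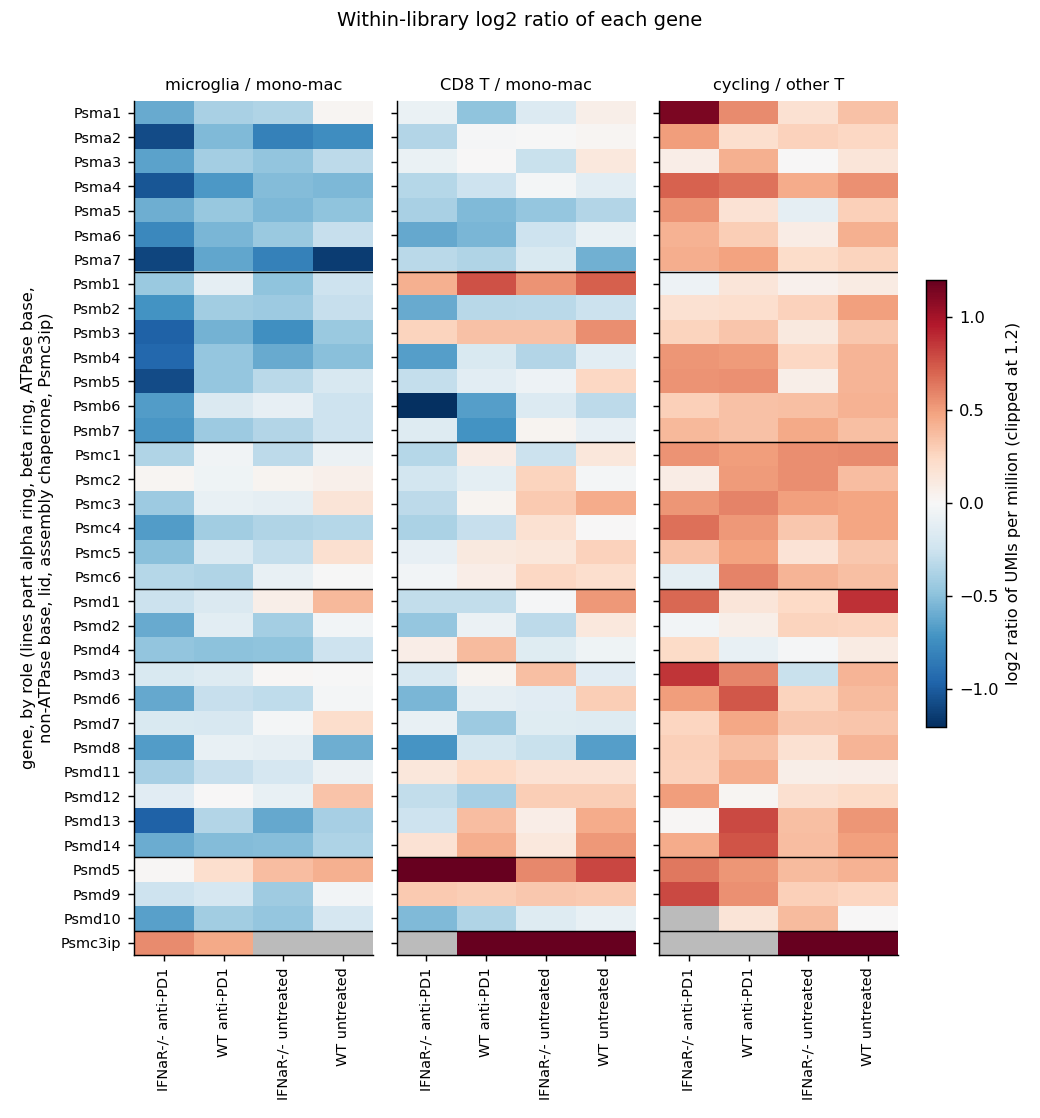
Log2 ratio of CPM of each gene (down the page, by role) within each library (across), for microglia over monocytes/macrophages, CD8 T cells over monocytes/macrophages and cycling over other T cells. Ratios use library totals without composition factors, and grey marks under 50 UMIs in the pair. In the first panel the alpha ring is below 0 in every library, except Psma1 in WT untreated cells, and in the third panel most genes are above 0.

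CD8 T cells were compared with monocytes/macrophages in the same way. 17 of 35 genes fell in CD8 T cells and 3 rose by edgeR's adjusted p, while 32.7% of all genes tested were lower and 29.9% higher. All 7 alpha-ring genes fell, with a median log2 ratio of -0.47, but only 1 of 6 ATPases did. This count depends on scaling: with library totals in place of TMM factors (which correct for composition), 7 fell and 6 rose. The median of all genes was -0.02 under TMM factors and 0.25 without them, and the members' median -0.35 and -0.06. On library totals, 7, 6, 7 and 4 of the 7 alpha-ring genes were below 0 within the 4 libraries, against 39.3, 39.3, 45.8 and 45.15% of all genes measured. The count of genes that fell was 4 in the untreated libraries alone (a choice made after seeing the data), and 8 without either anti-PD1 library.

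Psmb6 was at 99.7, 192, 127 and 154 CPM in CD8 T cells, against 250.4, 304, 142 and 192 CPM in monocytes/macrophages. The log2 ratio was -0.89 ± 0.20 (SE), edgeR adjusted p = 0.0015, and the gap was widest in the IFNaR-/- anti-PD1 library. In the untreated libraries alone the ratio was -0.37 and did not pass. The lid subunit Psmd8 had a ratio of -0.76 ± 0.15 (SE), edgeR adjusted p = 0.00045. The alpha-ring subunit Psma5 had -0.71 ± 0.12 (SE), edgeR adjusted p = 0.00018, and the beta-ring subunit Psmb2 had -0.67 ± 0.13 (SE), edgeR adjusted p = 0.00044. In the opposite direction, Psmb1, a beta-ring subunit without a catalytic site (chr17:15475021-15499751, minus strand), was at 212, 400, 319.5 and 361 CPM in CD8 T cells, against 158, 236, 221 and 219.8 CPM in monocytes/macrophages. It was the higher in CD8 T cells in every library, though its call (0.33 ± 0.13 (SE), edgeR adjusted p = 0.044) was lost under 8 of the 15 alternatives run for it. Psmd5, a chaperone that assembles the base, was at 39.4, 33.3, 27 and 22.1 CPM in CD8 T cells, against 16.9, 13.4, 18.1 and 12.6 CPM in monocytes/macrophages. CD8 T cells were higher throughout, with a log2 ratio of 0.67 ± 0.16 (SE), edgeR adjusted p = 0.0018. Psmb5 (-0.35 ± 0.15 (SE), edgeR adjusted p = 0.053) did not pass, and Psmb7 fell (-0.49 ± 0.16 (SE), edgeR adjusted p = 0.013).

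CD4 T cells were also compared with CD8 T cells. None of the 35 rose or fell by edgeR's adjusted p, 1 had an unadjusted p under 0.05, and DESeq2 called none, while 6.58% of all genes tested were higher and 3.74% lower in CD4 T cells. On simulated counts this contrast recovered 26% of genes changed 1.5-fold, so changes of that size could go uncalled. The members' log2 ratios ran between -0.43 (Psmd9, a base chaperone) and 0.25 (Psmc2), with a median of 0.00. For Psmd9 the ratio was -0.43 ± 0.15 (SE), edgeR adjusted p = 0.1, and for Psmc2 0.25 ± 0.16 (SE), edgeR adjusted p = 0.62.

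T cells were then split by Mki67 and Top2a, genes of dividing cells. Cycling T cells held more proteasome message: 21 of 35 genes rose and none fell by edgeR's adjusted p, while 12.8% of all 10014 genes tested were higher and 11.0% lower. The sum over all 37 was 3729, 5651, 4213 and 4662 CPM in cycling T cells, against 2862, 4326, 3626 and 3701 CPM in other T cells, higher in every library. 5 of 6 ATPases rose, 5 of 7 beta-ring, 5 of 8 lid and 3 of 7 alpha-ring genes. All 3 constitutive catalytic genes were among them, with log2 ratios of 0.32 ± 0.09 (SE), edgeR adjusted p = 0.022 for Psmb5, 0.32 ± 0.08 for Psmb6 and 0.35 ± 0.09 for Psmb7. The gate needs UMIs of its markers, and cycling T cells had 8328, 8505, 13710 and 12340 UMIs at the median, against 3320.5, 4555.5, 8015 and 7403 in other T cells. The part of depth was not tested beyond thinning every cell to 1000 UMIs, where 1 gene rose. The count was 7 without the WT untreated library, 13 without the IFNaR-/- untreated library and 9 with DESeq2.

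Among single subunits, Psma4 was at 146, 228, 162 and 196 CPM in cycling T cells, against 90.2, 146, 119 and 134 CPM in other T cells. It was higher in cycling cells of all 4 libraries, with a log2 ratio of 0.52 ± 0.09 (SE), edgeR adjusted p = 0.00045. The ATPase Psmc1 was at 45.4, 78.4, 70.4 and 71.9 CPM in cycling T cells, against 31.6, 56, 47.6 and 48.7 CPM in other T cells. Its ratio, 0.50 ± 0.10 (SE), edgeR adjusted p = 0.0015, had the same sign in each library. Psmd1, the large scaffold subunit of the base, was at 134, 76.5, 99.5 and 109 CPM in cycling T cells, against 83.7, 70, 84 and 59.3 CPM in other T cells. The fold was largest in the WT untreated library, and the call (0.49 ± 0.12 (SE), edgeR adjusted p = 0.0073) was lost without that library. In monocytes/macrophages no member passed between cycling and other cells (edgeR, adjusted p under 0.05 in 3 libraries, 0.786% of all genes higher and 0.197% lower), 2 had an unadjusted p under 0.05, and DESeq2 called none. The sum there was 3840, 4602 and 4339 CPM in cycling cells of the IFNaR-/- anti-PD1, WT anti-PD1 and WT untreated libraries, against 3451, 4462 and 4007 CPM in the others. On simulated counts the monocyte/macrophage contrast recovered 10% of genes changed 1.5-fold, so changes of that size could go uncalled. Whether the cycling difference itself differs between T cells and monocytes/macrophages was not tested.

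The genes that share the prefix without being general subunits were rare. Psmc3ip was at 14.4, 13.1, 10.8 and 12.2 CPM in cycling T cells, against 0.867, 3.94, 4.02 and 2.46 CPM in other T cells, the only member more than 1.5-fold higher by its fitted ratio, at 2.03 ± 0.35 (SE), edgeR adjusted p = 0.00065. In CD8 T cells it was at 1.85, 5.98, 8.06 and 6.19 CPM, against 1.57, 2.25, 2.08 and 1.85 CPM in monocytes/macrophages (1.35 ± 0.37 (SE), edgeR adjusted p = 0.0058). These values rest on few molecules, 3, 7, 34 and 42 UMIs in the 4 CD8 T gates, and CD8 T gates of the untreated libraries held 37.1% (IFNaR-/-) and 30.9% (WT) cycling cells. Psmc3ip shares exon bases with Mlx on the opposite strand. Psma8, the testis alpha-ring variant, had 46, 24, 4 and 5 UMIs in microglia and 30, 78, 15 and 7 UMIs in monocytes/macrophages. Psmb11, the thymus-specific catalytic subunit, had at most 2 UMIs in any of the 16 gates. The Psmb11 counts are within the limit that a count of 0 allows, which is 3 UMIs, or 0.0613 to 4.26 CPM over these gates.

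Of 30 proteasome partners tested (activators, assembly factors, ubiquitin genes, shuttle factors and the transcription factors Nfe2l1 and Nfe2l2), 7 fell and 0 rose in microglia against monocytes/macrophages (all genes: 19.2% lower and 20.0% higher), with a median log2 ratio of -0.20. Sem1, a small lid component, had the ratio -1.22 ± 0.13 (SE), edgeR adjusted p = 7.6e-06. Psme2, a subunit of the interferon-inducible PA28 activator, had -0.98 ± 0.14 (SE), edgeR adjusted p = 0.00012. In cycling T cells 5 partners rose and 3 fell (all genes: 12.8% higher and 11.0% lower). Uchl5, a deubiquitinase bound to the regulatory particle, rose (0.79 ± 0.11 (SE), edgeR adjusted p = 0.00014), and Nfe2l2 fell (-0.81 ± 0.12 (SE), edgeR adjusted p = 0.00024). All 3 inducible subunits fell in microglia, with Psmb10, the inducible counterpart of Psmb7, at -1.02 ± 0.13 (SE), edgeR adjusted p = 4.9e-05.

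IFNaR-/- and WT cells were compared gate by gate within each pair of libraries. With 1 library per group there is no test, and the intervals given with ratios are 95% and cover counting error only. A gene is counted here when it lies past 1.5-fold with at least 50 UMIs in the pair. In the anti-PD1 pair most subunits were lower in IFNaR-/- cells. The members' median log2 ratio was -0.52, -0.63, -0.60 and -0.41 in CD8 T cells, CD4 T cells, microglia and monocytes/macrophages, while the median of all genes was 0.20, 0.07, 0.25 and 0.12. Past 1.5-fold, 15 of 34 members were lower and 0 higher in CD8 T cells (all genes: 14.7% and 26.8%). In CD4 T cells 19 of 34 were lower and 0 higher (17.5% and 21.1%). In microglia 19 of 36 were lower and 1 higher (14.5% and 30.5%). In monocytes/macrophages 11 of 36 were lower and 0 higher (16.2% and 23.1%). Of the 34 members measured in all 4 gates, 9 were past 1.5-fold lower in each: Psma2, Psma5, Psmb2, Psmb3, Psmc2, Psmc4, Psmd10, Psmd3 and Psmd8. Of all genes measured in all 4 gates, 5.98% were. Over the 10 alternatives run for each gate, the members' medians lay at -0.68 to -0.36, -0.76 to -0.58, -0.87 to -0.55 and -0.63 to -0.32. These are also the libraries that differ in kind, with ribosomal and receptor-segment shares given above, and in cell quality. The median mitochondrial share of UMIs was 1.63, 1.53, 2.01 and 1.68% in the 4 IFNaR-/- gates, against 0.619, 0.805, 0.688 and 0.539% in the WT gates, and 3.29% of IFNaR-/- barcodes, against 0.693% of WT barcodes, were over the mitochondrial limit of 10%. The part of these differences was not tested.

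Psmc2, an ATPase of the base at chr5:21785283-21803787 on the plus strand, had the lowest ratio of any member in CD8 T cells, microglia and monocytes/macrophages. In CD8 T cells it was at 17.2 CPM in the IFNaR-/- anti-PD1 library, against 53 CPM in the WT anti-PD1 library. In microglia it was at 20.8 CPM in the IFNaR-/- and 56 CPM in the WT library. Its log2 ratios were -1.61 (-2.32 to -0.96), -1.45 (-2.25 to -0.77), -1.43 (-1.61 to -1.25) and -1.50 (-1.66 to -1.35) in the 4 gates. The intervals of the 4 gates overlapped. In the untreated pair the ratios of Psmc2 were -0.09 (-0.36 to 0.19), 0.23 (-0.15 to 0.60), -0.42 (-0.75 to -0.09) and -0.38 (-0.59 to -0.18), so CD4 T cells had the other sign there. Psmd1, the base scaffold, went the other way in the anti-PD1 pair. It was at 102 CPM in IFNaR-/- monocytes/macrophages, against 71.8 CPM in WT, and was the 1 member above 0 in all 4 gates, at 0.51 (0.08 to 0.96), 0.29 (-0.17 to 0.74), 0.43 (0.31 to 0.54) and 0.51 (0.43 to 0.59). Psma8 was past 1.5-fold higher in microglia, at 46 UMIs in IFNaR-/- and 24 UMIs in WT cells.

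In the untreated pair, whose libraries were alike in receptor-segment and ribosomal shares, few subunits were past 1.5-fold between genotypes. The members' median log2 ratio was -0.04, -0.02, -0.14 and -0.02 in CD8 T cells, CD4 T cells, microglia and monocytes/macrophages, with 0.10, 0.03, 0.04 and 0.10 over all genes, and lay at -0.16 to 0.00663, -0.0629 to 0.0492, -0.20 to -0.00602 and -0.11 to 0.0900 over the alternatives. The median mitochondrial share of UMIs was 4.3, 4.27, 5.51 and 4.02% in the IFNaR-/- gates, against 2.94, 3.11, 3.28 and 2.68% in the WT gates, and its part was not tested. In CD8 T cells 0 of 35 members were past 1.5-fold in either direction (all genes: 3.26% lower, 6.76% higher), and in microglia 0 of 34 (7.32% and 7.93%). In CD4 T cells Psmd1 alone was higher (7.53% of all genes, with none lower, 5.93%), and in monocytes/macrophages Psmd2, Psmd13 and Psmd1 were (16.1% of all genes, with none lower, 10.3%). Psmd2, the other scaffold of the base, was at 143 CPM in IFNaR-/- monocytes/macrophages, against 83.9 CPM in WT, a log2 ratio of 0.77 (0.65 to 0.89). Psmd1 was at 88 CPM in IFNaR-/- and 58 CPM in WT monocytes/macrophages, a ratio of 0.60 (0.45 to 0.75).

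Core subunits lay lower than regulatory ones in this pair. Of the 14 core subunits (alpha and beta rings), 12, 12, 13 and 9 were below 0 in CD8 T cells, CD4 T cells, microglia and monocytes/macrophages, and of the 17 base and lid subunits 5, 6, 7 and 6. Of all genes measured, 37.3, 46.3, 46.3 and 41.7% were below 0 in these gates. The core median minus the regulatory median, which no scaling of the libraries can move, was -0.35, -0.16, -0.30 and -0.24 in log2 units. Relative to the median of all genes, the core medians were -0.32, -0.08, -0.31 and -0.24, and the regulatory medians 0.0296, 0.0776, -0.0161 and 0.0032, close to that of all genes. In the anti-PD1 pair the same gap was -0.0333, 0.148, -0.382 and -0.0636, so CD4 T cells had the other sign, and both particles lay below all genes, by -0.74, -0.68, -1.11 and -0.58 for the core and -0.70, -0.83, -0.73 and -0.52 for the regulatory particle. The 3 non-ATPase base subunits Psmd1, Psmd2 and Psmd4 had the highest median of the 6 roles in all 4 gates of that pair, at -0.03, 0.29, -0.10 and 0.37. These gaps have no test, and the gates of a pair come from the same libraries and are not replicates of the genotype.

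Some members had the same direction in both pairs, which share no library. Up to 3 per direction and gate are named here for that direction, so it is no evidence of itself. Each ratio is given for the anti-PD1 pair and then for the untreated pair. In CD8 T cells of IFNaR-/- mice the lower ones were Psmb5, at -0.38 (-0.66 to -0.10) and -0.45 (-0.62 to -0.29), Psmb3, at -0.85 (-1.06 to -0.64) and -0.36 (-0.48 to -0.24) and Psma5, at -0.80 (-1.15 to -0.45) and -0.33 (-0.51 to -0.15). The higher ones were Psmd5, at 0.23 (-0.36 to 0.85) and 0.29 (-0.07 to 0.65), Psmb7, at 0.28 (-0.15 to 0.73) and 0.08 (-0.09 to 0.26) and Psmd1, at 0.51 (0.08 to 0.96) and 0.06 (-0.14 to 0.25), of which Psmb7 and Psmd1 turned below 0 in the untreated pair under TMM and DESeq2 factors. In CD4 T cells the alpha-ring gene Psma5, the lid gene Psmd12 and the beta-ring gene Psmb2 were lower: Psma5, at -0.63 (-1.07 to -0.23) and -0.42 (-0.70 to -0.16), Psmd12, at -0.63 (-1.24 to -0.07) and -0.39 (-0.75 to -0.05) and Psmb2, at -0.64 (-1.05 to -0.25) and -0.33 (-0.62 to -0.05). Psmd14, the deubiquitinase of the lid, was higher there with both base scaffolds: Psmd1, at 0.29 (-0.17 to 0.74) and 0.61 (0.33 to 0.88), Psmd2, at 0.29 (-0.23 to 0.79) and 0.41 (0.17 to 0.65) and Psmd14, at 0.24 (-0.24 to 0.70) and 0.25 (-0.03 to 0.53). In microglia the lower ones were Psmd12, at -0.48 (-0.62 to -0.34) and -0.46 (-0.75 to -0.18), Psmd9, at -0.59 (-0.80 to -0.40) and -0.46 (-0.85 to -0.08) and Psmc5, at -0.81 (-0.95 to -0.67) and -0.43 (-0.70 to -0.17), a lid subunit, a base chaperone and an ATPase. The higher ones were Psmd1, at 0.43 (0.31 to 0.54) and 0.28 (0.06 to 0.50), Psmd5, at 0.15 (-0.10 to 0.40) and 0.47 (0.00 to 0.94) and Psmd14, at 0.02 (-0.11 to 0.15) and 0.38 (0.09 to 0.67), of which Psmd5 and Psmd14 turned below 0 in the anti-PD1 pair under TMM and DESeq2 factors. In monocytes/macrophages the lower ones were Psmc2, at -1.50 (-1.66 to -1.35) and -0.38 (-0.59 to -0.18), Psma4, at -0.56 (-0.63 to -0.50) and -0.33 (-0.43 to -0.23) and Psmb6, at -0.28 (-0.33 to -0.23) and -0.44 (-0.54 to -0.34). The higher ones were Psmd1, at 0.51 (0.43 to 0.59) and 0.60 (0.45 to 0.75), Psmd2, at 0.37 (0.29 to 0.45) and 0.77 (0.65 to 0.89) and Psmd5, at 0.34 (0.15 to 0.53) and 0.52 (0.20 to 0.84). With every cell thinned to 1000 UMIs, Psmb5 in anti-PD1 CD8 T cells was at 0.0145, and with equal weight per cell Psmd9 in untreated microglia was at 0.0848. The scaffold Psmd1 was on the higher side in all 4 gates of both pairs as reported, but in the untreated pair thinning put it at -0.49 in microglia and -0.0947 in CD8 T cells, and equal weight per cell put it at -0.00953 in CD8 T cells. Of 34 members measured in both pairs, 19, 17, 22 and 17 were below 0 in both in CD8 T cells, CD4 T cells, microglia and monocytes/macrophages, and 3, 3, 3 and 7 above 0 in both. Of all genes measured in both pairs, 20.4, 23.4, 20.7 and 24.1% were below 0 in both and 42.9, 29.1, 38.0 and 39.4% above 0 in both.

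**Figure D3:**
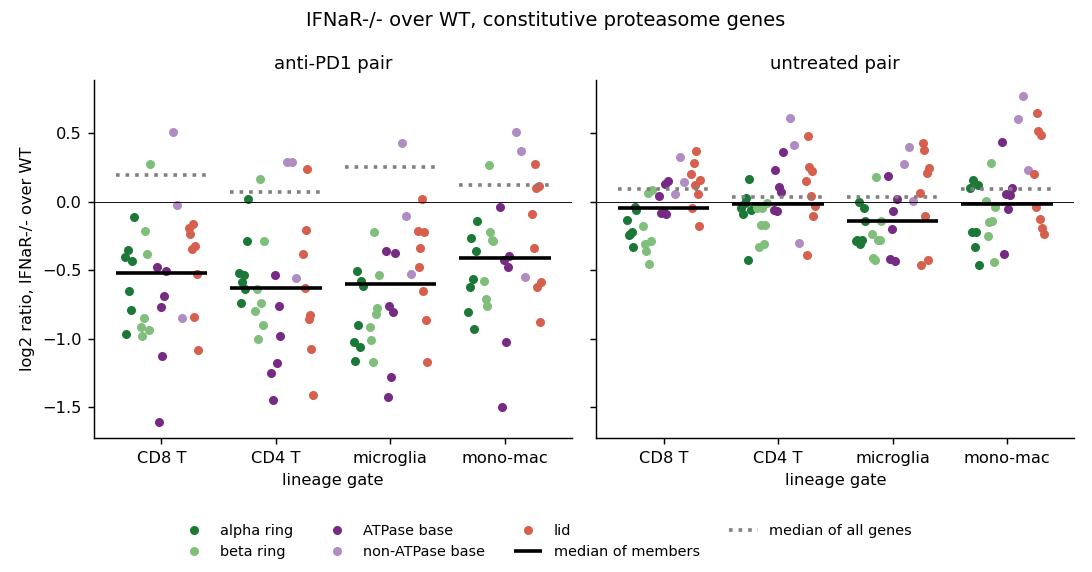
Log2 ratio of CPM, IFNaR-/- over WT (y axis), of each ring, base and lid subunit in 4 lineage gates (x axis), for the anti-PD1 pair and the untreated pair. Points are genes coloured by role, solid lines the median of all measured members and dotted lines the median of all genes measured. In the anti-PD1 pair the solid lines lie well below the dotted ones, and the untreated points scatter around 0.

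How much of the catalytic message was of the constitutive kind was read from the 3 exchangeable pairs, Psmb5 with Psmb8, Psmb6 with Psmb9 and Psmb7 with Psmb10, as the constitutive share of their UMIs (exact Clopper-Pearson 95% intervals, counting error only). UMIs are not scaled between genes, so a share was compared between libraries and is no absolute proportion. The share was higher in the IFNaR-/- library in every gate of both pairs. In the anti-PD1 pair it was 33.5% (31.2 to 36%) in IFNaR-/- CD8 T cells, against 23.1% (21.3 to 24.9%) in WT. In IFNaR-/- CD4 T cells it was 32.6% (29.2 to 36.2%), against 27.1% (25.3 to 28.9%) in WT. The myeloid gates had the larger gaps in points, a difference that was not tested. IFNaR-/- microglia had 41% (40 to 41.9%), against 26.4% (26 to 26.9%) in WT, and IFNaR-/- monocytes/macrophages 40.4% (39.8 to 41%), against 23.4% (23.2 to 23.6%) in WT. In the untreated pair the shares were 34.6% (33.2 to 36.1%) in IFNaR-/- CD8 T cells against 30.4% (29.4 to 31.4%) in WT, and 36.5% (34.1 to 39%) in IFNaR-/- CD4 T cells against 30.4% (29.1 to 31.8%) in WT. Untreated IFNaR-/- microglia had 39.1% (37.3 to 41%), against 31.6% (30.2 to 32.9%) in WT, and monocytes/macrophages 33.3% (32.3 to 34.2%), against 25.1% (24.5 to 25.7%) in WT. The 2 intervals did not overlap in any of these 8 comparisons.

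In monocytes/macrophages the levels behind the share differed mainly on the inducible side. In monocytes/macrophages of the anti-PD1 pair, Psmb5 was at 168 CPM in IFNaR-/- and 196 CPM in WT cells, Psmb6 at 250.4 and 304 CPM, and Psmb7 at 82.6 and 101 CPM. The inducible 3 together were at 740.4 CPM in IFNaR-/- and 1964 CPM in WT cells of that pair, and at 716 and 1256 CPM in the untreated pair. The 3 pairs were not alike. Psmb7 made up 31% (29.8 to 32.3%) of its pair in IFNaR-/- monocytes/macrophages after anti-PD1, against 18.8% (18.3 to 19.2%) in WT, and Psmb5 33.4% (32.5 to 34.4%), against 16.1% (15.8 to 16.4%). In T cells of the anti-PD1 pair Psmb6 had no higher share in IFNaR-/- cells, and its own level was lower there than in WT cells. In CD8 T cells it made up 31.9% (27.9 to 36.1%) in IFNaR-/- and 33.2% (29.6 to 36.9%) in WT, and in CD4 T cells 30% (24.5 to 35.9%) in IFNaR-/- and 35.3% (31.8 to 38.9%) in WT, with overlapping intervals. Psmb5 in untreated CD8 T cells, at 23.3% (21.5 to 25.3%) in IFNaR-/- and 23.1% (21.9 to 24.4%) in WT, overlapped as well. So did Psmb5 in untreated CD4 T cells, at 24.9% (21.8 to 28.2%) in IFNaR-/- and 22.7% (20.9 to 24.6%) in WT. Psmb7 overlapped in CD4 T cells of both pairs. It was at 52.4% (42.4 to 62.2%) in IFNaR-/- and 37.95% (32.5 to 43.7%) in WT after anti-PD1. In untreated cells it was at 57.45% (51.9 to 62.85%) in IFNaR-/- and 50% (46.4 to 53.6%) in WT.

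**Figure D4:**
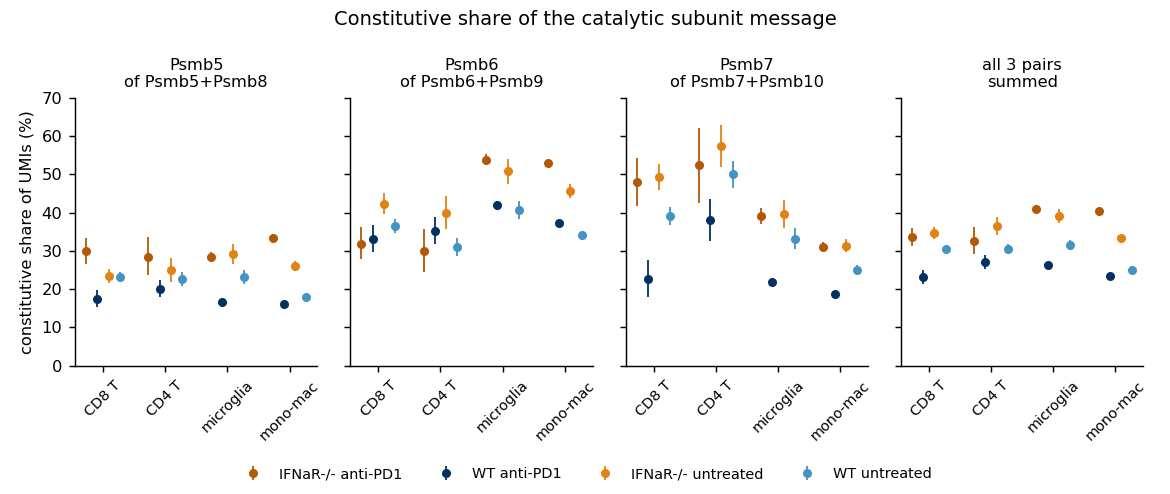
Constitutive share of UMIs (%, y axis) of each exchangeable catalytic pair and of the 3 pairs summed, by lineage gate (x axis) and library. Points are single libraries and bars are 95% exact binomial intervals. In the summed panel the IFNaR-/- point lies above the WT point of its pair in every gate.

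Anti-PD1 and untreated libraries were compared within a genotype. These contrasts use the same 4 libraries as the genotype contrasts, and sort day, sort mixture and counting software version change with the treatment, so none of them can be told apart from the antibody. The same holds for library kind, whose measures moved in both genotypes and furthest in WT mice. There, T cells had 2.08 variable-segment UMIs per constant-segment UMI after anti-PD1, against 0.0182 untreated, and ribosomal protein genes took 11.4% of UMIs, against 19.1%. In IFNaR-/- mice these values were 0.0845, against 0.0162, and 16.2%, against 19.2%. Cell quality changed too. In the IFNaR-/- and WT libraries, 3.29% and 0.693% of barcodes were over the mitochondrial limit after anti-PD1, against 24.2% and 21% untreated. The nuclear RNA Malat1 took 0.289% and 0.318% of UMIs after anti-PD1, against 1.76% and 2.9% untreated. The part of these differences in the ratios was not tested. In IFNaR-/- mice the members' median log2 ratio was -0.55, -0.38, -0.58 and -0.33 in CD8 T cells, CD4 T cells, microglia and monocytes/macrophages, with 0.04, -0.01, -0.22 and -0.24 over all genes. There 14 of 34, 11 of 34, 17 of 35 and 8 of 35 members were lower past 1.5-fold (all genes: 19.2, 19.9, 27.6 and 30.2%), and 0, 0, 1 and 1 higher (25.0, 22.1, 16.3 and 18.0%). In WT mice the medians were -0.01, 0.21, -0.01 and 0.13, with 0.05, 0.05, -0.30 and -0.15 over all genes, and 2, 7, 3 and 6 members were higher past 1.5-fold (all genes: 21.8, 21.0, 13.5 and 18.4%) and 1, 1, 0 and 0 lower (18.9, 17.3, 35.8 and 28.8%). Over the 10 alternatives run for each gate, the medians lay at -0.69 to -0.46, -0.46 to -0.0413, -0.69 to -0.27 and -0.37 to -0.0616 in IFNaR-/- mice, where CD4 T cells came nearest to 0 with thinned cells and monocytes/macrophages with TMM factors. In WT mice they lay at -0.17 to 0.0504, 0.0900 to 0.27, -0.0403 to 0.42 and 0.10 to 0.41, so the sign depended on the alternative in CD8 T cells and microglia. Cycling cells were 6.6% and 7.73% of CD8 T cells in the IFNaR-/- and WT anti-PD1 libraries, against 37.1% and 30.9% in the untreated ones, and the part of this in the T-cell values was not tested. In IFNaR-/- mice, 12, 10, 13 and 7 of 17 base and lid subunits were past 1.5-fold lower in the 4 gates, and 2, 0, 4 and 1 of 14 core subunits, a contrast with no test.

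Some members had the same direction in both genotypes. Only those that ranked highest per direction and gate are named here for that direction, so a list can be incomplete. Each ratio is given for IFNaR-/- and then for WT mice. Psmb6 was at 250.4 CPM in IFNaR-/- anti-PD1 monocytes/macrophages, against 142 CPM in untreated ones, and at 304 CPM in WT anti-PD1 cells, against 192 CPM in untreated ones. The higher ones named in that gate were of the beta ring: Psmb6, at 0.82 (0.73 to 0.91) and 0.66 (0.60 to 0.72), Psmb5, at 0.55 (0.45 to 0.65) and 0.63 (0.56 to 0.71) and Psmb2, at 0.35 (0.25 to 0.46) and 0.81 (0.74 to 0.89). Members outside the beta ring were higher there too, among them the base scaffold Psmd1 in both genotypes. The lower ones were Psmd11, at -0.65 (-0.77 to -0.53) and -0.36 (-0.46 to -0.26), Psmd2, at -0.64 (-0.74 to -0.53) and -0.24 (-0.34 to -0.13) and Psmb4, at -0.23 (-0.30 to -0.17) and -0.22 (-0.27 to -0.16), of which Psmb4 and, in WT mice, Psmd2 turned above 0 under TMM and DESeq2 factors. In microglia the higher ones were Psmb6, at 0.25 (0.11 to 0.39) and 0.74 (0.62 to 0.86) and Psmb2, at 0.07 (-0.11 to 0.26) and 0.67 (0.53 to 0.82), also of the beta ring. The lower ones were Psmd11, at -0.85 (-1.04 to -0.66) and -0.57 (-0.74 to -0.40), Psmc6, at -0.90 (-1.10 to -0.69) and -0.50 (-0.68 to -0.32) and Psmd4, at -0.92 (-1.10 to -0.73) and -0.39 (-0.54 to -0.22), of which Psmd4, a ubiquitin receptor of the base, turned above 0 in WT mice under TMM and DESeq2 factors. In CD4 T cells the higher ones were Psmb5, at 0.34 (-0.04 to 0.70) and 0.77 (0.54 to 0.99), Psmb2, at 0.31 (-0.12 to 0.72) and 0.62 (0.36 to 0.87) and Psma5, at 0.09 (-0.36 to 0.51) and 0.30 (0.04 to 0.56). The lower ones were Psmd2, at -0.76 (-1.21 to -0.35) and -0.63 (-1.01 to -0.29), Psmd11, at -0.92 (-1.38 to -0.51) and -0.39 (-0.69 to -0.10) and Psmd9, at -0.46 (-1.31 to 0.26) and -0.27 (-0.86 to 0.26). In CD8 T cells the higher ones were Psmd5, at 0.55 (0.08 to 1.00) and 0.61 (0.05 to 1.11), Psmb5, at 0.33 (0.09 to 0.56) and 0.25 (0.03 to 0.47) and Psmd14, at 0.13 (-0.15 to 0.40) and 0.42 (0.12 to 0.69), of which Psmd14 turned below 0 in IFNaR-/- mice under TMM and DESeq2 factors. The lower ones were Psmb7, at -0.46 (-0.77 to -0.17) and -0.66 (-1.04 to -0.31), Psmd2, at -0.79 (-1.11 to -0.49) and -0.44 (-0.80 to -0.10) and Psmc3, at -1.11 (-1.45 to -0.81) and -0.42 (-0.71 to -0.15), among them the catalytic Psmb7. With every cell thinned to 1000 UMIs, the WT ratios of Psmb5 and Psmd2 in CD8 T cells were -0.20 and 0.13, and that of Psmd2 in monocytes/macrophages was 0.24. Psma5 in IFNaR-/- CD4 T cells was at -0.15 with equal weight per cell and at -0.0088 with the strict cell filter.

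**Figure D5:**
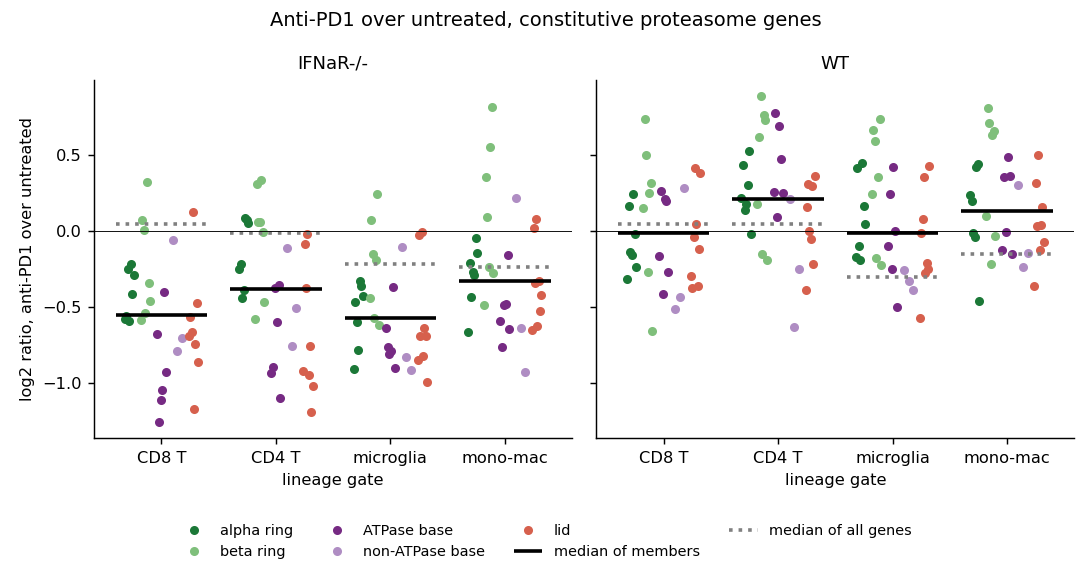
Log2 ratio of CPM, anti-PD1 over untreated (y axis), of each ring, base and lid subunit in 4 lineage gates (x axis), in IFNaR-/- and in WT mice. Points are genes coloured by role, solid lines the median of all measured members and dotted lines the median of all genes measured. In IFNaR-/- mice the ATPase, base and lid points lie mostly below 0.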

How the data were processed

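The submitters deposited raw UMI counts per gene and barcode, not normalized, from 10x Genomics 5′ libraries, per the labels' protocols. Receptor-segment and ribosomal shares differed between libraries, as given above, and whether every library was of that kind was not tested. The submitters' processing notes name Cell Ranger and the builds mm10 and GRCm38, and software versions are 3.1.0 (untreated) and 7.2.0 (after anti-PD1), per the file headers. A barcode was kept with 200 or more detected genes and no more than 10% mitochondrial UMIs, and the cells with the highest Scrublet scores (scanpy 1.11.5), 0.8% per 1000 barcodes, were removed as doublets, because the automatic threshold marked at most 1 cell per library. Libraries shared 0 to 3 barcodes, and the anti-PD1 pair 95. Gates needed 2 or 3 marker UMIs, and 19 to 27.7% of cells met none. UMIs were summed per library and gate, leaving out gates of under 50 cells. Lineage and cycling contrasts were fitted over all genes with edgeR 4.0.16 (quasi-likelihood test, TMM factors, filterByExpr, library as block, Benjamini-Hochberg adjustment). Each SE was derived as the absolute log2 ratio over the square root of the test's F statistic. It is not a separately fitted error and can differ from what the p-value implies. Ratios between libraries used UMIs plus 0.5 over the gate's total, and no test was made, since each group is 1 library. The fit was tested on simulated counts with a fixed dispersion and no library effects. Across the contrasts it recovered 10 to 48% of 100 genes changed 1.5-fold and 59 to 92% of 100 changed 2-fold. Recovery at 1.5-fold was 10% for cycling monocytes/macrophages and 26% for CD4 against CD8 T cells. Alternatives were DESeq2 1.42.0, other scalings, filters, gates and thinning, and each library left out. The genes and lists were chosen with earlier results of these data known. Named genes were the largest called ratios per contrast (up to 4 per direction) and, between libraries, up to 3 per direction with the same sign in both pairs, ranked by the smaller ratio; Psmb5, Psmb6, Psmb7, Psma8, Psmb11 and Psmc3ip were always included, and Psmc2 and Psmd9 where they fall outside the rule, Psmd2 and Psmd13 in untreated cells, and single partners were added after their values were seen. Positions are from GENCODE M21 (GRCm38). 8 members (Psma3, Psma4, Psma5, Psmb3, Psmb5, Psmc1, Psmd2 and Psmd11) have a copy elsewhere of at least 95% identity over 300 bases, and 7 (Psma4, Psma5, Psmb7, Psmc3, Psmc3ip, Psmd1 and Psmd13) share exon bases with a gene on the other strand, so their counts are less certain.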

Additional observations from a re-analysis of the deposited data

Results flagged for a closer look

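In CD4 T cells, 2 ATPases of the proteasome base changed in opposite directions between anti-PD1 and untreated libraries of the 2 genotypes, each past 1.5-fold. Psmc2 had a log2 ratio of -0.90 in IFNaR-/- and 0.78 in WT mice. Psmc4 had -0.60 in IFNaR-/- and 0.69 in WT mice. Each value compares 1 library with 1 library, and the difference between genotypes was not tested. Of all genes in CD4 T cells, 19.9% were past 1.5-fold lower in IFNaR-/- and 21.0% past 1.5-fold higher in WT mice. The share of all genes with both was not counted, so whether the members stand out from it is not known. The WT anti-PD1 library is the one that stood apart in kind, and the IFNaR-/- ratio of Psmc4 lay close to the 1.5-fold limit.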

How the results depend on the processing

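No alternative reversed a named ratio or a median that passed a test or lay past 1.5-fold; sign changes of other named ratios stand with them in the account above. For microglia over monocytes/macrophages, 23 genes fell; leaving out 1 library gave 15 to 21, the untreated libraries alone (chosen after seeing the data) 16, and no library block 3. For CD8 T cells over monocytes/macrophages, 17 fell and 3 rose; leaving out 1 library gave 8 to 20 and 1 to 3, thinning to 1000 UMIs per cell 11 and 0, library totals 7 and 6; 4 fell without the block and 4 in the untreated libraries alone. For cycling T cells, 21 rose; leaving out 1 library gave 7 to 22, DESeq2's Wald test 9, thinning 1 and no block 1. Thinning called 1 gene lower in CD4 against CD8 T cells. The cycling contrast in monocytes/macrophages could not be fitted with doubled gate minimums. No paired analysis was possible because the labels give no replicate numbers and each group is 1 library; this concerns comparisons between groups, since the lineage and cycling contrasts were blocked by library. Median log2 ratios between libraries under TMM factors, with DESeq2 size factors in parentheses, were for IFNaR-/- over WT anti-PD1 microglia -0.87, anti-PD1 monocytes/macrophages -0.62 (-0.63), untreated CD8 T -0.16 (-0.15). Anti-PD1 over untreated in IFNaR-/- mice, they were -0.69 (-0.69) in CD8 T cells, -0.28 (-0.27) in microglia and -0.0616 (-0.0698) in monocytes/macrophages, and thinning gave -0.0413 in CD4 T cells. In WT mice they were 0.42 (0.42) in microglia and 0.41 (0.40) in monocytes/macrophages. Constitutive catalytic shares under thinning were 20.7% (WT anti-PD1 CD8 T), 25.1% (microglia) and 22% (monocytes/macrophages), 37.6% (IFNaR-/- untreated CD8 T), 29.7% (CD4 T) and 41.9% (microglia), and 27.5% (WT untreated CD4 T) and 33.3% (microglia). Doubled gate minimums gave 41.5% in IFNaR-/- untreated and 27% in WT anti-PD1 microglia, and the strict cell filter 36% in IFNaR-/- untreated microglia. Other causes of these changes were not tested. Counts per gate limit single genes: under 50 UMIs in a pair, no ratio was read.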
